A study of Mus musculus with 12 samples.

Results

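The 10 genes described here encode isoenzymes of glycolysis: the hexokinases Hk1 and Hk2, the phosphofructokinases Pfkl, Pfkm and Pfkp, aldolase A (Aldoa), the ATP-forming kinases Pgk1 and Pkm, and the lactate dehydrogenase subunits Ldha and Ldhb. They were chosen by symbol and not by their values, and all 10 are among the 23183 gene symbols measured. RNA was sequenced from the kidney cortex of C57BL/6 mice (C57BL/6N in the study's methods) on day 7 after unilateral ureteral obstruction (UUO), a surgical block of urine flow from 1 of the kidneys, and the contralateral kidney (CL), left unobstructed, was the control. The mice were male and 6 to 7 weeks old at surgery, by the study's methods. Both kidneys came from Acot12+/+ and from Acot12-/- mice, which made 4 groups (Acot12+/+ CL and UUO, Acot12-/- CL and UUO), with 3 libraries in each and 12 in all. Acot12 encodes an acyl-CoA thioesterase, an enzyme that hydrolyzes acetyl-CoA, and the Acot12-/- mice carry a germline nuclease-induced mutation of it in every cell type. A CL kidney shares its animal with an obstructed kidney, so it is not a kidney of an unoperated mouse, and no sham-operated group was analysed here.

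Glycolysis converts glucose to pyruvate, and lactate dehydrogenase converts pyruvate to lactate and back. Hexokinase traps glucose in the cell, phosphofructokinase commits the sugar to breakdown, aldolase splits it, and phosphoglycerate kinase and pyruvate kinase each form ATP. Most steps have several isoenzymes from separate genes, which differ in tissue, in kinetics and in regulation. The healthy proximal tubule, the most abundant cell type of the cortex, burns fatty acids and makes glucose. It holds little hexokinase activity, whereas the distal nephron is more glycolytic.

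Levels are given as FPKM (fragments counted per kilobase of a transcript and relative to a library size), which divide by length, so that genes can be set beside each other. Differences come from limma on log2(FPKM + 1), and each adjusted p was corrected over the 13243 genes tested. A gene was called at an adjusted p under 0.05. All 10 isoenzymes entered the test. Hk2 did so only through the UUO libraries, since 6 of 6 UUO and 0 of 6 CL libraries reached 1 FPKM. The library size behind the values, recovered from their steps, was 12400000 to 16300000 fragments in CL and 18300000 to 22900000 in UUO libraries. The median ratio of a library's genes to their geometric means over all libraries was only 0.976 to 1.02. Scaling between libraries may thus be part of that size, which does not show which side was sequenced more deeply. Acot12 itself was at 52.7 to 78.1 FPKM in wild-type and 6.80 to 9.15 in knockout CL kidneys, and at 9.98 to 21.2 in wild-type and 1.80 to 3.86 in knockout UUO kidneys, in the direction of the labels on both sides. Acot12-/- CL replicate 2 stood apart: its correlations with its group were 0.966 and 0.972 (log2 scale), against 0.984 to 0.994 for all other pairs of replicates, and it was the lowest library of its group for 8 of the 10 isoenzymes. Results that rest on it are therefore given with and without it. Markers of the cell types also moved with UUO. The summed level of 10 proximal tubule markers was 2367 to 4726 FPKM over the CL and 166 to 941 over the UUO libraries, and all 10 fell in both genotypes. Of 9 markers of distal tubule and collecting duct, 9 fell in Acot12+/+ and 8 in Acot12-/- kidneys (median log2 differences of -2.34 and -1.78). All 9 injured tubule markers rose in both genotypes (3.13 and 3.09), as did 6 of 8 fibroblast markers in Acot12+/+ and 8 of 8 in Acot12-/- kidneys (1.42 and 2.15). The sum of 9 macrophage markers rose too, at 57.4 to 187 FPKM over the CL and 711 to 988 over the UUO libraries. In whole cortex, fewer cells of a type and less RNA per cell cannot be told apart, and the part of cell composition in the results below was not tested. The 6 skeletal muscle markers summed to at most 3.37 FPKM in any library.

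All 10 genes are protein-coding and have positions in RefSeq (GRCm38.p6, the assembly known as mm10). Hk2 lies on chromosome 6 from 82725025 to 82774454 (minus strand), Pfkm on chromosome 15 from 98092589 to 98132447 (plus strand), Pgk1 on chromosome X from 106187100 to 106203699 (plus strand), and Ldha on chromosome 7 from 46842274 to 46855627 (plus strand). These 4 genes are shown by the 250 bases before an annotated transcription start. They were chosen because they were called with UUO in both genotypes (Hk2 in a test it entered only through UUO libraries) and hold ACGTG there. These letters are the core bound by hypoxia-inducible factors. Capitals mark ACGTG or its reverse complement, and also the E-box CACGTG, which contains it and is the site of Myc. The Hk2 window is chr6:82774455-82774704, the Pfkm window chr15:98092339-98092588 (before the first of its 4 starts), the Pgk1 window chrX:106186850-106187099 and the Ldha window chr7:46845554-46845803, each read along the strand of its gene.
Hk2: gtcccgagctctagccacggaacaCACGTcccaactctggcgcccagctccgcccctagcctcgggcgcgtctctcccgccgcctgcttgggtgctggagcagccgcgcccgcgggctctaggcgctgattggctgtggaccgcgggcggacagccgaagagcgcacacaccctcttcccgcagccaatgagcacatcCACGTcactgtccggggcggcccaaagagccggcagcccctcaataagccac
Pfkm: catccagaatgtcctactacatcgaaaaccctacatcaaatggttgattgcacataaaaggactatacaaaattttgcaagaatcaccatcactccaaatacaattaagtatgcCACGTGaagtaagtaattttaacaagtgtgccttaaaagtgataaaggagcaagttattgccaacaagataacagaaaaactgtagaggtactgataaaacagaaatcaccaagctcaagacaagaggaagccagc
Pgk1: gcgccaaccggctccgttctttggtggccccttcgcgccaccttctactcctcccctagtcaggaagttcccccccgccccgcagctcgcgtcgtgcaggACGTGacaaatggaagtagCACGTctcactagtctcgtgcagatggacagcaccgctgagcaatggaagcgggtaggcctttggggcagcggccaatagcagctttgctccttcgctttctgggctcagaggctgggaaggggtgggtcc
Ldha: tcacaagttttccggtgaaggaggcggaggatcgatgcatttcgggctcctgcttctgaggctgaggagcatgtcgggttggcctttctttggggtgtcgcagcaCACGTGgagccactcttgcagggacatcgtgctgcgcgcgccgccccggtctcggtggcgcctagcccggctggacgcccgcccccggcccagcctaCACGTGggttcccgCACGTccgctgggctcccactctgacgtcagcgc
The core was found 2 times in the Hk2 window, 2 times in that of Pgk1, 2 times in that of Pfkm, both in its 1 E-box, and 5 times, counted on both strands, in that of Ldha, where 2 E-boxes each hold it on both strands. Among the 10 genes, 6 held ACGTG before at least 1 of their 18 annotated starts, against 18.5% of 27025 genes. Counted by start, 8 of the 18 held it, against 16.6% of 32851 starts, and the second start of Ldha was among those without it. The E-box was present for 2 of them, Pfkm and Ldha, against 6.86% of genes. A match of letters is a description and not evidence of a bound site.

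Under obstruction the 10 isoenzymes did not move together. Of the 9 that reached 1 FPKM on both sides, 1 was called higher in UUO than in CL in Acot12+/+ kidneys (Pfkp), 3 lower (Pfkm, Pgk1 and Ldha) and 5 in neither direction, and in Acot12-/- kidneys the called genes were the same 4 in the same directions. Hk2 was higher in UUO as well, but since it entered the test through the UUO libraries it is left out of these counts. Of all genes tested, 47.5% were called in Acot12+/+ and 53.7% in Acot12-/- kidneys, so the 4 of 9 isoenzymes are near the share of genes in general. Calls toward higher values made up 23.6% and 26.6% of all genes, and calls toward lower values 23.9% and 27.2%. The median log2 difference of the 9 isoenzymes was -0.19 in Acot12+/+ and 0.11 in Acot12-/- kidneys, beside 0.01 and -0.01 over all genes tested. With Hk2 counted again, the libraries of the 2 sides did not overlap for 6 of the 10 isoenzymes in Acot12+/+ kidneys (71.1% of genes). In Acot12-/- kidneys they did not overlap for 7 of the 10, Hk2 included (55.3% of genes). The total FPKM of the UUO libraries was lower than that of the CL libraries, at 491078 to 686425 against 799670 to 977981. When every library was scaled to an equal total instead, the median of all genes shifted by 0.62 in Acot12+/+ and 0.44 in Acot12-/- kidneys, and the calls over all genes went from 3129 higher and 3161 lower to 7427 higher and 1047 lower in Acot12+/+ kidneys, and from 3518 and 3596 to 6078 and 1552 in Acot12-/- kidneys. Directions below are relative to the deposited scale, on which the median difference of all genes was near 0.

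**Figure D1:**
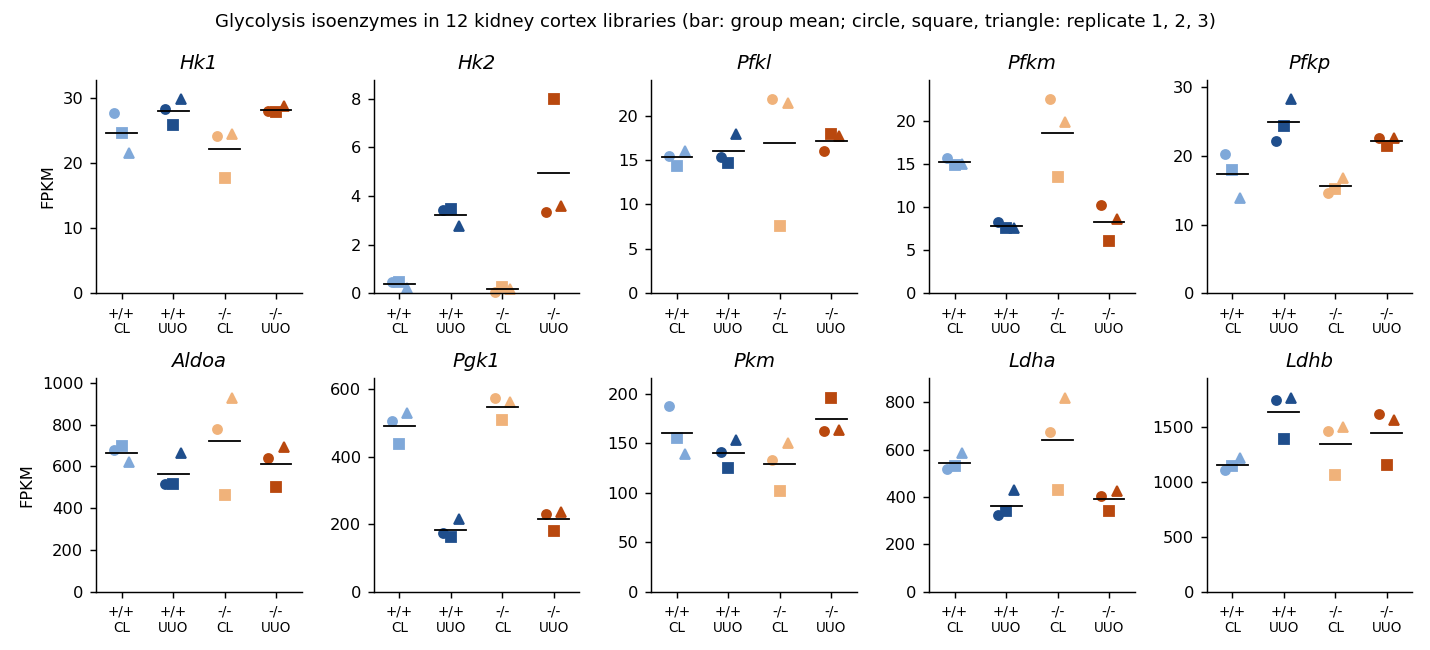
FPKM (linear axes that start at 0) of the 10 isoenzymes in the 12 libraries, with 1 panel per gene, 1 symbol per library and a bar at each group mean. Pgk1 falls from 439 to 576 FPKM in the 6 CL libraries to 161 to 237 in the 6 UUO libraries, Hk2 is under 1 FPKM in every CL library, and Acot12-/- CL replicate 2 (pale square) lies under its group for most genes.

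Hk1, the hexokinase found in most tissues, stayed the main hexokinase on both sides. It was at 27.8, 24.7 and 21.7 FPKM in Acot12+/+ CL, and at 28.4, 26.0 and 29.9 in Acot12+/+ UUO. The values were 24.2, 17.8 and 24.5 FPKM in the Acot12-/- CL libraries, against 28.0, 27.9 and 28.8 in those from UUO. The libraries overlapped in Acot12+/+ kidneys, whereas each Acot12-/- UUO library was above each Acot12-/- CL library. The log2 difference was 0.18 ± 0.15 (SE, adjusted p = 0.346) in Acot12+/+ and 0.35 ± 0.15 (adjusted p = 0.0717) in Acot12-/- kidneys, so neither was called. On equal totals both were called higher (0.89, adjusted p = 0.000706 and 0.88, adjusted p = 0.000895), which is 0.28 and 0.43 above the median gene on that scale. On the deposited scale, the Acot12-/- difference of 0.35 became 0.43 without Acot12-/- CL replicate 3 and was then called (limma, adjusted p = 0.0436).

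Hk2, the insulin- and hypoxia-inducible hexokinase of muscle and fat, was near absent from the CL libraries and rose in UUO. In FPKM it was 0.481, 0.473 and 0.218 in the Acot12+/+ CL libraries, against 3.42, 3.48 and 2.77 in those from UUO, or about 16 to 34 against 326 to 414 fragments. The Acot12-/- CL libraries had 0.038, 0.279 and 0.174 FPKM, from about 3 to 21 fragments, and the Acot12-/- UUO libraries 3.34, 7.98 and 3.57 FPKM. Every UUO library was therefore above every CL library, and Acot12-/- UUO replicate 2 was the highest of all. Mean FPKM rose 8.25-fold in Acot12+/+ kidneys and, from a level of few fragments, 30.3-fold in Acot12-/- kidneys (46.8-fold without Acot12-/- CL replicate 2). On log2(FPKM + 1), which understates the change of a gene this low, the difference was 1.60 and 2.28 (1.94 without Acot12-/- UUO replicate 2). Its p-values are taken from the fit with no filter on low values, which it did not need its UUO libraries to enter (limma, adjusted p = 0.00057 and 4.84e-05).

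Together, Hk1 and Hk2 came to 21.9 to 28.3 FPKM in the Acot12+/+ CL libraries, against 29.5 to 32.7 in those from UUO. As a share of the summed FPKM of Hk1, Hk2, Hk3 and Hkdc1 in a library, Hk1 went from 94.1% ± 2.28 (SD, n = 3) in Acot12+/+ CL to 83.2% ± 1.69 in Acot12+/+ UUO, and from 95.7% ± 2.02 to 79.5% ± 6.24 in Acot12-/- kidneys. Hk2 went from 1.45% ± 0.422 to 9.60% ± 1.56 in Acot12+/+ and from 0.774% ± 0.682 to 13.6% ± 6.11 in Acot12-/- kidneys. A share within a library does not depend on how the library is scaled. Over both genotypes the share of Hk1 fell by 13.5 points and that of Hk2 rose by 10.5 points with UUO, each with p = 0.005 by the exact permutation test (two-sided, labels permuted within genotype, n = 6 against 6), which is the smallest that test can give, and an adjusted p of 0.00667 over the 8 shares tested. Hk3, the hexokinase of myeloid cells, was at 0 to 0.323 FPKM in CL (about 0 to 16 fragments) and 1.18 to 1.71 in UUO libraries. Macrophage markers rose as well, and a relation of Hk3 to them was not tested.

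**Figure D2:**
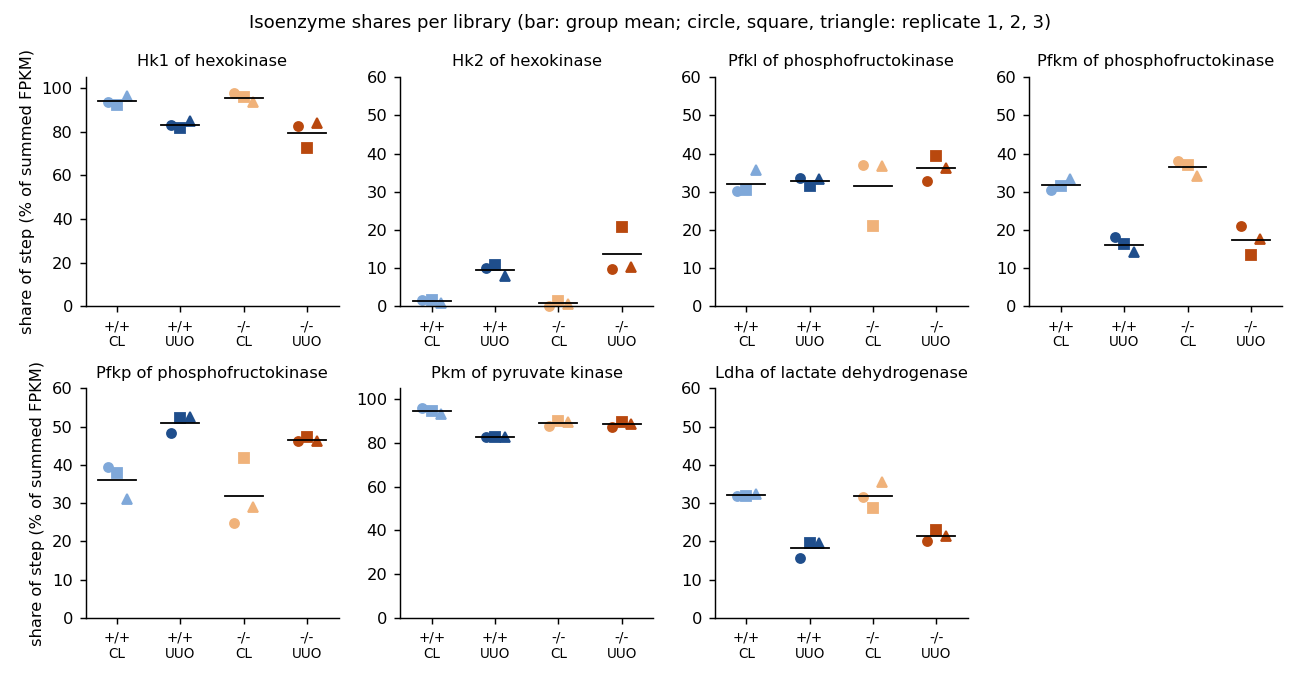
Share of each step's summed FPKM (percent, linear axes from 0) taken by 7 isoenzymes in each of the 12 libraries, with a bar at each group mean. Pfkm, Ldha and Hk1 are lower and Hk2 and Pfkp higher in UUO than in CL libraries of the same genotype without overlap, while the sides of Pkm are apart in Acot12+/+ and overlap in Acot12-/- kidneys.

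Among the phosphofructokinases, the muscle-type subunit Pfkm fell, the platelet-type subunit Pfkp rose and the liver-type subunit Pfkl was not called. Pfkm was at 15.7, 14.9 and 14.9 FPKM in the Acot12+/+ CL libraries, against 8.25, 7.59 and 7.62 in those from UUO. Its levels were 22.5, 13.4 and 19.9 FPKM in the Acot12-/- CL libraries, against 10.2, 6.08 and 8.57 in those from UUO. No UUO library reached any CL library of its genotype, and mean FPKM was 1.94-fold lower in Acot12+/+ and 2.24-fold lower in Acot12-/- UUO than CL kidneys. Pfkm fell by 0.87 on the log2 scale (SE 0.20, adjusted p = 0.00345) in Acot12+/+ and by 1.07 (SE 0.20, adjusted p = 0.000685) in Acot12-/- kidneys, and it was called with each of the 12 libraries left out. On equal totals the call in Acot12+/+ kidneys was lost (-0.20, adjusted p = 0.415) and that in Acot12-/- kidneys kept (-0.57, adjusted p = 0.0333), which is 0.82 and 1.01 under the median gene.

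Pfkp was at 20.2, 17.9 and 13.9 FPKM in the Acot12+/+ CL libraries, against 22.1, 24.3 and 28.2 in those from UUO. The knockout CL kidneys had 14.6, 15.2 and 16.8 FPKM of it, against 22.5, 21.4 and 22.6 with obstruction. The UUO libraries lay above the CL libraries in both genotypes, by a log2 difference of 0.51 ± 0.15 (SE, adjusted p = 0.0173) in Acot12+/+ and 0.49 ± 0.15 (adjusted p = 0.0178) in Acot12-/- kidneys. The call in Acot12+/+ kidneys was lost without CL replicate 3 (0.36, adjusted p = 0.0853) or UUO replicate 3 (0.42, adjusted p = 0.0765). That in Acot12-/- kidneys was lost, at a similar size, without CL replicate 1 (0.45, adjusted p = 0.0504) or UUO replicate 1 (0.48, adjusted p = 0.0502) and when only the 2 Acot12-/- groups were fitted (0.49, adjusted p = 0.0655).

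Pfkl was at 15.5, 14.3 and 16.1 FPKM in the Acot12+/+ CL libraries, against 15.3, 14.6 and 18.0 in those from UUO, with full overlap. The Acot12-/- CL libraries had 21.9, 7.61 and 21.4 FPKM and the Acot12-/- UUO libraries 16.0, 17.9 and 17.7. The low value belongs to Acot12-/- CL replicate 2, the library that stood apart. With it the log2 difference was 0.05 ± 0.29 (SE, adjusted p = 0.892) in Acot12+/+ and 0.15 ± 0.29 (adjusted p = 0.696) in Acot12-/- kidneys. Without it the Acot12-/- difference turned to -0.31 with an adjusted p of 0.0268, so a single library decided its direction and its call. Under equal totals Pfkl was called higher in Acot12+/+ kidneys (0.75, adjusted p = 0.0339), 0.13 above the median gene on that scale.

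The summed phosphofructokinase level was 44.9 to 51.4 FPKM in the Acot12+/+ CL libraries, against 45.7 to 53.8 in those from UUO, and 36.2 to 59.0 against 45.4 to 48.9 in Acot12-/- kidneys. The makeup of that sum changed while its range overlapped. Pfkm made up 31.8% ± 1.38 (SD, n = 3) of it in the Acot12+/+ CL libraries, against 16.2% ± 1.94 in those from UUO, and 36.5% ± 2.01 and 17.3% ± 3.79 in the Acot12-/- groups. Pfkp made up 36.1% ± 4.48 and 51.0% ± 2.27 in Acot12+/+ and 31.9% ± 8.91 and 46.5% ± 0.59 in Acot12-/- kidneys. The shift over both genotypes was -17.4 points for Pfkm and 14.8 points for Pfkp, each at the smallest p of the exact permutation test (0.005, adjusted p = 0.00667). The share of Pfkl moved by 2.60 points (exact permutation test, p = 0.485), and by -0.05 points without Acot12-/- CL replicate 2.

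Aldoa, the aldolase of muscle and most other tissues, was among the most abundant of the 10 genes and was not called. It was at 676, 699 and 620 FPKM in the Acot12+/+ CL libraries, against 514, 514 and 665 in those from UUO. The levels were 776, 463 and 929 FPKM in the Acot12-/- CL libraries, against 642, 500.4 and 691 in those from UUO. The libraries overlapped in both genotypes. Its log2 difference was -0.24 ± 0.25 (SE, adjusted p = 0.437) in Acot12+/+ and -0.20 ± 0.25 (adjusted p = 0.526) in Acot12-/- kidneys. In the latter it came to -0.49 (adjusted p = 0.0429) without CL replicate 2 and 0.01 (adjusted p = 0.965) without CL replicate 3. On the scale of equal totals both differences were positive (0.49 and 0.35), while still 0.13 and 0.09 under the median gene.

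Pgk1, the phosphoglycerate kinase that forms ATP in the middle of the pathway, had the largest fall of the 10 genes. It was at 505, 439 and 529 FPKM in the Acot12+/+ CL libraries, against 173, 161 and 215 in those from UUO, a 2.68-fold lower mean. The knockout CL kidneys had 576, 508 and 562 FPKM, against 232, 179 and 237 with obstruction, a 2.54-fold lower mean. The lowest CL library was thus above the highest UUO library by a wide margin in both genotypes. It fell by 1.42 on the log2 scale (SE 0.17, adjusted p = 6.43e-05) in Acot12+/+ and by 1.35 (SE 0.17, adjusted p = 5.32e-05) in Acot12-/- kidneys, and was called with any single library left out and on every scale tried, equal totals included (-0.69 and -0.80). Pgk1 has 2 processed copies named in GENCODE (Pgk1-ps1 and Pgk1-ps3), as Aldoa and Ldha also do, so reads of these 3 genes may have been divided with near-identical sequence.

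Pkm, the pyruvate kinase of most tissues other than liver, was not called in either genotype but differed in sign. Its levels were 188, 155 and 139 FPKM in the Acot12+/+ CL libraries, against 141, 125 and 153 in those from UUO. For Acot12-/- mice they were 133, 102 and 151 FPKM without obstruction and 162, 196 and 164 with it. The Acot12+/+ libraries of the 2 sides overlapped, and the Acot12-/- UUO libraries were all above the Acot12-/- CL libraries. The log2 difference was -0.19 ± 0.18 (SE, adjusted p = 0.41) in Acot12+/+ and 0.45 ± 0.18 (adjusted p = 0.0583) in Acot12-/- kidneys. The former turned to 0.54 (adjusted p = 0.0364) under equal totals, which is 0.08 under the median gene on that scale. The Acot12-/- difference became 0.99 (adjusted p = 0.00108) under equal totals, 0.55 above the median gene. It was 0.57 (adjusted p = 0.0248) without Acot12-/- CL replicate 3 but 0.29 (adjusted p = 0.132) without Acot12-/- CL replicate 2. Without both Acot12-/- libraries numbered 2 it was 0.20 (adjusted p = 0.310). The difference between genotypes in the change was 0.64 ± 0.26 (SE, unadjusted p = 0.0303, adjusted p = 0.400), which did not pass over all genes. In limma without Acot12-/- CL replicate 2 that difference was 0.48 (unadjusted p = 0.0449, adjusted p = 0.178). Without both Acot12-/- libraries numbered 2 it was 0.39 (unadjusted p = 0.0871). The muscle-type and proliferation-associated splice forms of Pkm share this gene-level value and are not separated.

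The other pyruvate kinase gene, Pklr, which serves liver, red cells and proximal tubule and is not among the 10, was at 7.71, 8.34 and 10.2 FPKM in the Acot12+/+ CL libraries, against 29.3, 25.9 and 31.3 in those from UUO. It was at 18.8, 11.3 and 17.2 FPKM in the Acot12-/- CL libraries, against 23.8, 22.9 and 20.3 in those from UUO. It rose in both genotypes, by 1.62 (adjusted p = 4.18e-05) and 0.50 (adjusted p = 0.0359), and was higher in Acot12-/- than in Acot12+/+ CL kidneys by 0.76 (adjusted p = 0.0376). The share of Pkm in the pyruvate kinase sum differed between the groups. In Acot12+/+ mice it was 96.1%, 94.9% and 93.2% of the CL sums and 82.8%, 82.8% and 83.0% of the UUO sums, and in Acot12-/- mice 87.7%, 90.0% and 89.7%, then 87.2%, 89.6% and 89.0%. Over both genotypes it fell by 6.19 points (exact permutation test, p = 0.025, adjusted p = 0.0286). That fall was 11.8 points in Acot12+/+ and 0.56 points in Acot12-/- kidneys, and by mouse, taken from the replicate number, it was 10.2 to 13.2 and 0.444 to 0.759 points. Permuting genotype over the 6 mice gave p = 0.1 for the difference (exact permutation test, two-sided, added after the shares were seen; adjusted p = 0.4 over 8 shares), the smallest that 3 mice against 3 can give, so the design cannot reach a p of 0.05. The adjusted p of the fall over both genotypes rose to 0.0514 without Acot12-/- CL replicate 2 and to 0.0629 without Acot12-/- UUO replicate 1.

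The 2 lactate dehydrogenase subunits shifted in their proportion. Ldha, the subunit that prevails in muscle and in lactate-producing cells, was at 517, 533 and 586 FPKM in the Acot12+/+ CL libraries, against 324, 339 and 428 in those from UUO. For Acot12-/- mice the values were 674, 429 and 821 FPKM without obstruction and 405, 343 and 425 with it. All UUO libraries were under the CL libraries of their genotype, although Acot12-/- CL replicate 2 was only just above. Ldha fell by 0.59 on the log2 scale (SE 0.23, adjusted p = 0.0491) in Acot12+/+ and by 0.67 (SE 0.23, adjusted p = 0.0262) in Acot12-/- kidneys. Both calls were close to the threshold. In Acot12+/+ kidneys the adjusted p ranged from 0.00664 to 0.152 with single libraries left out, and passed in 3 of 12 such fits: those without Acot12+/+ UUO replicate 3, Acot12-/- CL replicate 2 or Acot12-/- CL replicate 3. In Acot12-/- kidneys it passed in 8 of 12 and was lost without CL replicate 1 or 3 or UUO replicate 1 or 2, with adjusted p from 0.0506 to 0.0894. It was also lost when only the 2 Acot12-/- groups were fitted (-0.67, adjusted p = 0.114). On equal totals Ldha was at 0.14 and -0.12, which is 0.47 and 0.57 under the median gene.

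Ldhb, the subunit that prevails in heart and in lactate-using tissue, was the most abundant of the 10 genes in every library. It was at 1108, 1142 and 1218 FPKM in the Acot12+/+ CL libraries, against 1747, 1390.0 and 1766 in those from UUO. The values were 1463, 1059 and 1498 FPKM in the Acot12-/- CL libraries, against 1620.0, 1156 and 1565 in those from UUO. The sides did not overlap in Acot12+/+ kidneys and overlapped in Acot12-/- kidneys, where replicate 2 was the lowest of both groups. The log2 difference of 0.49 ± 0.20 (SE) in Acot12+/+ kidneys had an adjusted p of 0.0656, and 0.0117 when the mouse was kept as a block. It was called with no variance trend (adjusted p = 0.0405), with only the 2 groups fitted (adjusted p = 0.0103) and on equal totals (1.23, adjusted p = 0.00013), where it was also called in Acot12-/- kidneys (0.66, adjusted p = 0.0114). It was also called without Acot12-/- CL replicate 2 (adjusted p = 0.0323) or Acot12-/- UUO replicate 2 (adjusted p = 0.0468), which enter only the estimate of the spread. In Acot12-/- kidneys the difference was 0.11 ± 0.20 (adjusted p = 0.670), and -0.05 without CL replicate 2.

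Ldha made up 31.8%, 31.8% and 32.5% of the lactate dehydrogenase sum in the CL kidneys of Acot12+/+ mice, against 15.6%, 19.6% and 19.5% in their UUO kidneys. The share was 31.5%, 28.8% and 35.4% in CL kidneys of Acot12-/- mice, against 20.0%, 22.9% and 21.3% in their UUO kidneys. No library of a UUO group reached a CL library, and the fall was 12.2 points over both genotypes (exact permutation test, p = 0.005, adjusted p = 0.00667). Since the testis subunit Ldhc was at 0 in all libraries but 1, Ldhb took the rest.

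**Figure D3:**
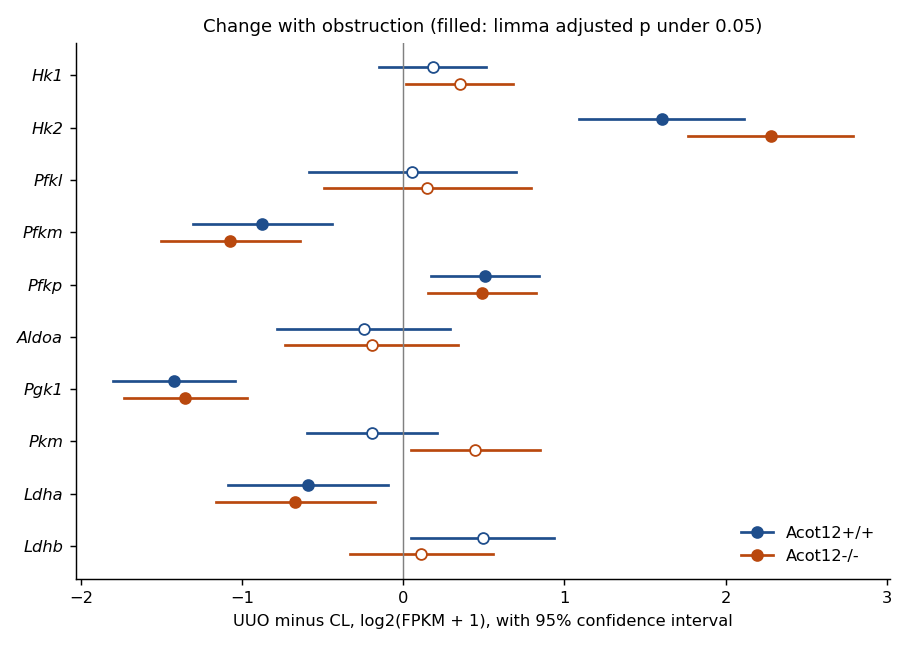
Difference of UUO and CL kidneys on log2(FPKM + 1) for the 10 isoenzymes in Acot12+/+ and Acot12-/- kidneys, with 95% confidence intervals from limma and filled points where the adjusted p was under 0.05. Hk2 and Pfkp lie to the right of 0 and Pfkm, Pgk1 and Ldha to the left in both genotypes, and Pkm lies on opposite sides. Hk2 entered this test only through UUO libraries.

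By level, Ldhb led in all 4 groups, followed by Aldoa, Ldha, Pgk1 and Pkm in that order of the means. In Acot12+/+ CL the libraries of Ldha and Pgk1 overlapped, as did those of Pfkp with Pfkl and of Pfkl with Pfkm. The Acot12-/- CL libraries overlapped for Aldoa with Ldha, Ldha with Pgk1, and for neighbours from Hk1 (22.2 FPKM on average) down to Pfkp (15.5). Hk2 was the lowest of the 10 in every group, with means of 0.391 FPKM in the CL and 3.22 in the UUO kidneys of Acot12+/+ mice and 0.164 and 4.96 in those of Acot12-/- mice. In Acot12-/- UUO its libraries overlapped with those of Pfkm, and those of Pgk1 with Pkm, while in Acot12+/+ UUO only Hk1 and Pfkp overlapped among neighbours.

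More of the other genes of the pathway fell than rose. Of 14 other glycolytic genes, 13 were tested. In Acot12+/+ kidneys 3 rose and 6 fell with a median log2 difference of -0.43, and in Acot12-/- kidneys 4 rose and 7 fell with a median of -0.67. Gapdh, which makes the substrate of Pgk1, fell from 986 to 1846 FPKM over the CL libraries to 528 to 949 over the UUO libraries (-0.89, adjusted p = 0.0208 and -0.87, adjusted p = 0.0206). Triosephosphate isomerase Tpi1 fell by 1.12 (adjusted p = 0.00339) and 1.01 (adjusted p = 0.00501), and phosphoglycerate mutase Pgam1, next after Pgk1, by 1.11 (adjusted p = 0.000103) and 1.26 (adjusted p = 2.74e-05). Enolase Eno2, known from neurons, rose from 0.216 to 0.574 FPKM over the CL to 1.29 to 3.14 over the UUO libraries (log2 differences of 0.94 and 1.03). Eno2 and Hk3 were under 1 FPKM in every CL library, so they entered the test and these counts only through UUO libraries.

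**Figure D4:**
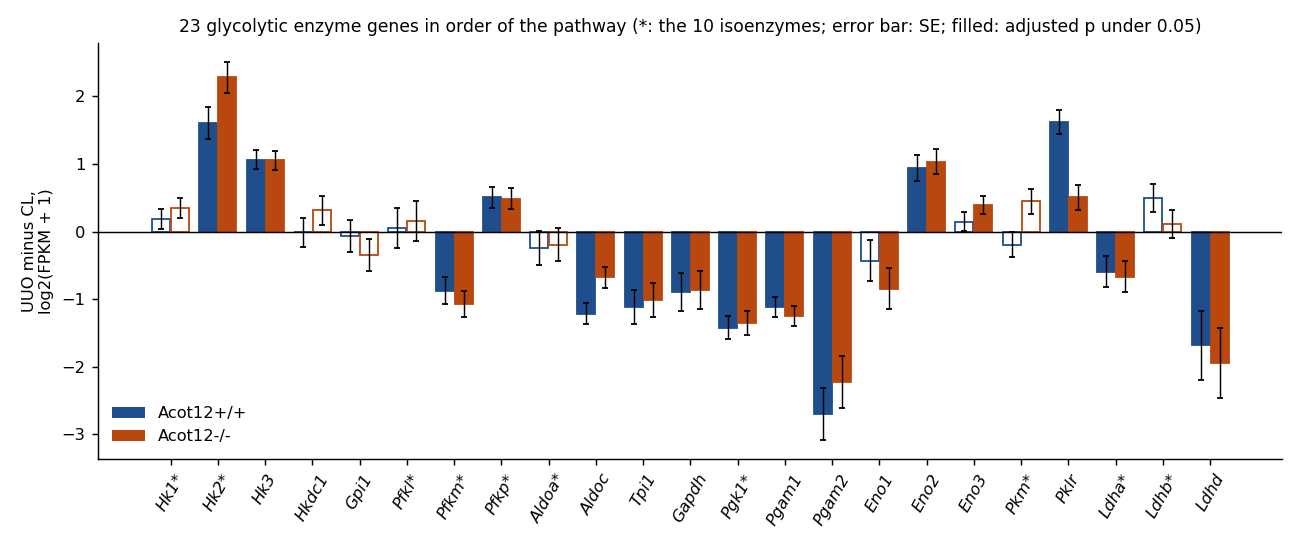
Difference of UUO and CL kidneys on log2(FPKM + 1) for 23 tested glycolytic genes in pathway order, with the 10 isoenzymes starred; bars start at 0, error bars are the SE and filled bars have an adjusted p under 0.05. From Aldoc through Pgam2 the tested genes lie under 0, while Hk2, Hk3, Pfkp, Eno2 and Pklr rise. Hk2, Hk3 and Eno2 entered the test only through UUO libraries.

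Genes that feed or drain the pathway fell for the most part. Of 9 tested glucose and lactate transporters, 1 rose and 6 fell in Acot12+/+ kidneys (median -0.84) and 2 rose and 7 fell in Acot12-/- kidneys (median -1.28). The lactate exporter Slc16a3 rose from 0.062 to 1.20 FPKM in CL to 2.02 to 5.90 in UUO libraries (log2 differences of 1.06 and 1.86). Slc16a3 was under 1 FPKM in every CL library but Acot12+/+ CL replicate 2. It therefore entered the test and these counts through its UUO libraries. The glucose importer Slc2a1 rose by 0.64 (adjusted p = 0.0186) in Acot12-/- kidneys, while its difference in Acot12+/+ kidneys was 0.44 (adjusted p = 0.0948). Of 13 genes for pyruvate entry into mitochondria and pyruvate dehydrogenase, 10 fell in Acot12+/+ and 11 in Acot12-/- kidneys, with medians of -1.23 and -1.58. In the same list 1 rose in Acot12+/+ and 2 in Acot12-/- kidneys. Mpc1, a subunit of the mitochondrial pyruvate carrier, fell by 2.44 (adjusted p = 4.30e-05) and 2.28 (adjusted p = 3.76e-05). Pdk4, a kinase that switches pyruvate dehydrogenase off, rose by 1.17 (adjusted p = 0.00161) and 0.89 (adjusted p = 0.00692). Of 8 gluconeogenic genes, 5 fell in each genotype, while 2 rose in Acot12+/+ and 1 in Acot12-/- kidneys. The medians were -2.06 and -2.39. The median of the 7 pentose phosphate genes was 0.19 and 0.03, with 1 lower in each genotype and 1 higher in Acot12+/+ kidneys.

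Genes that respond to hypoxia and genes that regulate glycolytic genes moved in different directions. Among 14 tested hypoxia-response genes, 2 rose and 7 fell in Acot12+/+ and 1 rose and 8 fell in Acot12-/- kidneys, with medians of -0.36 and -0.56. Bnip3, a mitophagy receptor and hypoxia target, fell by 1.62 (adjusted p = 5.33e-05) and 1.67 (adjusted p = 2.41e-05). Of 12 regulators of glycolytic genes, 4 rose, 2 fell and 6 were not called in each genotype, with medians of 0.05 and -0.0004. Among them Hif1a, the hypoxia-inducible factor whose core site stands in capitals above, was not called (-0.59, adjusted p = 0.0896 and -0.56, adjusted p = 0.0965). Myc, the transcription factor of the E-box, rose from 1.29 to 3.20 FPKM over the CL libraries to 11.1 to 20.6 over the UUO libraries (2.87, adjusted p = 1.95e-06 and 1.92, adjusted p = 9.84e-06). Among the 5 enzymes of fructose-2,6-bisphosphate, the main activator of phosphofructokinase, none was called in Acot12+/+ kidneys, where 0 of 5 also passed an unadjusted p under 0.05 in limma. In Acot12-/- kidneys Pfkfb4 rose by 0.79 (adjusted p = 0.00683) and Pfkfb1 by 0.64. Pfkfb1 was under 1 FPKM in every CL library, so it entered the test only through UUO libraries.

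No isoenzyme was called between the genotypes on either side. Between Acot12-/- and Acot12+/+ CL kidneys 0 of 10 were called, against 4.48% of all genes, and 0 of 10 had an unadjusted p under 0.05 in limma. The 593 calls behind that share became 2923 without Acot12-/- CL replicate 2, 189 to 687 without any other single library and 1 with only the 2 groups fitted. The log2 differences ran from -0.33 for Pkm (95% interval -0.73 to 0.08) to 0.25 for Pfkm (-0.18 to 0.68), and the libraries of the 2 groups overlapped for all 10 (18.3% of genes did not overlap). Without Acot12-/- CL replicate 2, Pfkl was called higher in Acot12-/- CL (0.47, adjusted p = 0.0145), and without both Acot12-/- libraries numbered 2 so was Pfkm (0.46, adjusted p = 0.0154). Between Acot12-/- and Acot12+/+ UUO kidneys 0 of 10 were called, against 0.0151% of all genes, and 0 of 10 had an unadjusted p under 0.05. The differences ran from -0.18 for Ldhb (95% interval -0.63 to 0.26) to 0.42 for Hk2 (-0.09 to 0.93). Without Acot12-/- UUO replicate 2, the highest library for Hk2, the Hk2 difference was 0.08. For Pkm alone the UUO libraries did not overlap, at 162 to 196 FPKM in Acot12-/- against 125 to 153 in Acot12+/+ kidneys (12% of genes did not overlap). These intervals leave room for changes of more than 1.5-fold in several genes, so small effects of genotype were not detectable with 3 libraries a group.

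The change with UUO was also compared between genotypes. None of the 10 was called for the interaction, against 0.106% of all genes, and 1 (Pkm) had an unadjusted p under 0.05. The 14 calls behind that share became 916 without Acot12-/- CL replicate 2, 153 without Acot12-/- CL replicate 3, 83 with the mouse as a block and 0 to 8 without any other single library, and none of the 10 was among them in those fits. For Hk2 the interaction was 0.67 (95% interval -0.05 to 1.40, adjusted p = 0.526) and for Ldhb -0.38 (-1.01 to 0.25, adjusted p = 0.769). That of Hk2 was 0.34 without Acot12-/- UUO replicate 2. In the CL kidneys, where no isoenzyme was called, macrophage, lymphocyte, fibroblast and endothelial markers were lower in Acot12-/- than in Acot12+/+ mice in 4 of 9, 4 of 6, 2 of 8 and 5 of 6 genes tested, with median log2 differences of -1.09, -1.15, -0.99 and -1.11. The part of these cells in the isoenzyme levels of the CL kidneys was not tested.

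The genes most like each isoenzyme over the 12 libraries are given by Pearson correlation of log2(FPKM + 1), as a description in which the libraries share the split into CL and UUO. Pgk1 was closest to Pcbd1 (0.993), Fdx1 (0.993) and Atp5a1 (0.993), and Pfkm was close to Got1 (0.984) and Glyctk (0.980). Ldha lay nearest to Tmem14c (0.988), Slc9a3r1 (0.987) and Rab34 (0.987). On the rising side, Hk2 was close to Tpbg (0.988) and Gpr176 (0.988), and Pfkp to L1cam (0.971), Acta2 (0.964) and Slc20a1 (0.964). Among the isoenzymes that were not called, the nearest gene of Pfkl (Med25, 0.970) was about as close as that of Pfkp. Those of Aldoa (Acot8, 0.956), Hk1 (Grik5, 0.944), Ldhb (Mpp2, 0.911) and Pkm (Lmo1, 0.869) were less close. Correlations without Acot12-/- CL replicate 2, the lowest library of Pfkl, were not computed.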

How the data were processed

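RNA-seq of kidney cortex was analysed in 12 libraries, grouped by the labels into 4 groups of 3. The authors had RNAiso Plus RNA made into directional NEBNext Ultra II libraries, and trimming, mapping and normalization were done for them by an outside provider; the aligner and the counting are not given in the sources used here, and the submitters' processing notes name mm10 and edgeR. The deposited values are FPKM per gene symbol, a unit inferred from their steps. Low values also gave the size each library was divided by (12400000 to 22900000 fragments), which may hold a scaling between libraries. FPKM are not counts, so no count model was fitted, and counting error of low genes enters only through the spread between libraries. The labels do not say which animal each library came from, so p-values measure the spread between these samples.

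Genes with at least 1 FPKM in at least 3 libraries were kept (13271), and 28 listed at 0 in a library while another of its group had at least 10 FPKM were left out. The other 13243 were fitted as log2(FPKM + 1) with limma 3.58.1 in R 4.3.3 (4 group means, variance trend, Benjamini-Hochberg over all genes). Tested on simulated data for UUO against CL in Acot12+/+ kidneys, the step recovered 65% of shifts of 1 and 95% of shifts of 2 on log2(FPKM + 1). Far fewer genes were changed in the simulation than were called with UUO, so these rates are not the power of that comparison. Shares of a step were tested by exact permutation, two-sided, with Benjamini-Hochberg over 8 shares, in Python 3.11.15. Alternatives were a pseudocount of 0.1, no filter, other scalings, no trend, zeros kept, only the groups compared, each library left out and a block for the mouse. Residuals of same-numbered CL and UUO libraries correlated over genes at 0.134, 0.364 and 0.335 in Acot12+/+ kidneys. In Acot12-/- kidneys they correlated at 0.322, 0.186 and 0.318. Differently numbered CL and UUO libraries within a genotype ran from -0.363 to 0.139. Same-numbered UUO libraries of the 2 genotypes, which are different mice, correlated at -0.303, 0.272 and 0.392. That a number stands for the 2 kidneys of a mouse is therefore an inference. Results given by mouse, or with the mouse as a block, rest on it.

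The isoenzymes and gene lists were chosen with earlier results of these data known. Named genes are the 10 isoenzymes, genes of those lists, Acot12 and the 3 genes most correlated with each isoenzyme. Some of these genes, and the share of 1 of the 8 isoenzymes, are not reported here, and lists and sums of a step leave such genes out where they are printed. Promoter sequences and positions are from RefSeq (GRCm38.p6), in which all 10 symbols matched.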

Additional observations from a re-analysis of the deposited data

How the results depend on the processing

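Of 828 recomputed values, 771 kept their direction and their side of the threshold (or, for counts, stayed within 1.5 times), 24 lost and 17 gained a call, 10 changed sign and 6 counts moved further. Scaling to equal totals, which moved the median of all genes, turned Aldoa in Acot12+/+ (0.49) and Acot12-/- kidneys (0.35), Pkm in Acot12+/+ (0.54) and Ldha in Acot12+/+ kidneys (0.14). Fitting only the groups compared left 3 isoenzymes called in Acot12-/- kidneys in place of 5 (Hk2 is counted here and in the next counts). With single libraries left out, 3 to 6 isoenzymes were called in Acot12+/+ and 3 to 7 in Acot12-/- kidneys, and 0 to 1 between genotypes in CL, against 2 there without both Acot12-/- libraries numbered 2, an alternative chosen after seeing the data. In those fits Pfkl ranged from -0.0278 to 0.112 in Acot12+/+ and from -0.31 to 0.39 in Acot12-/- kidneys (-0.34 without both Acot12-/- libraries numbered 2). Aldoa in Acot12-/- kidneys ranged from -0.49 to 0.0136 and Ldhb there from -0.0486 to 0.266. The share of Pfkl ranged from -0.0499 to 3.96 points and that of Pkm from -6.58 to -5.85 points. The replicate block, a term for the mouse as taken from the replicate number, called 6 isoenzymes in Acot12+/+ kidneys (Ldhb added) and 5 in Acot12-/- kidneys, and changed no other call among the 10. Signs flipped within pairs of the same replicate number gave the 7 called shares an adjusted p of 0.0357 (exact permutation test, n = 6 pairs), from the smallest p it can give (0.03125). The cause was not tested. With 3 libraries a group and FPKM alone, small changes and genes near 1 FPKM are not resolved.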
